A study of Mus musculus with 12 samples.

Results

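The 10 genes described here, Pecam1, Cdh5, Esam, Emcn, Flt1, Kdr, Tek, Tie1, Eng and Cldn5, are genes by which endothelial cells are commonly recognised, and they were followed as a readout of vessel content in embryonic skeletal tissue. The array annotation assigned 15 probes to 9 of them, 13 of these probes were bright enough to be tested among 23744 tested probes of 46643, and no probe was annotated to Cldn5, a tight junction gene that is not analysed here. For each of the 9 genes the brightest probe was detected on all 12 arrays, so the genes entered the test irrespective of the group in which they were high. In WT embryos 5 of the 9 were higher in long bone than in cartilage at an adjusted p under 0.05 in limma, against 5.47% of all probes. The 9 log2 differences were all positive, against 48% of all probes, and their median was 1.65-fold. The WT cartilage arrays were amplifications of the same extract, so this test leaves out the spread between embryos. Between embryos without and with site-1 protease (S1P) in cartilage, 0 of the 9 passed the test in either tissue.

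Endothelial cells line blood vessels and are held together by adhesion molecules, among them platelet endothelial cell adhesion molecule (Pecam1), vascular endothelial cadherin (Cdh5) and the endothelial adhesion molecule Esam. They sense vascular endothelial growth factor through the receptors encoded by Kdr and Flt1, and angiopoietins through the receptor encoded by Tek, to which the product of Tie1 is related. Resting cartilage has no vessels, whereas a long bone is invaded by vessels from its bone collar once hypertrophic cartilage mineralizes, and the flat bones of the skull vault form within vascular mesenchyme without a cartilage stage.

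Arrays were made from E16.5 C57BL/6 embryos. In S1Pcko embryos (S1P f/f;Col2-Cre) the floxed alleles are cut by Cre under the control of a collagen II promoter, which is active in the cartilage lineage. WT littermates were S1P f/+;Col2-Cre, S1P f/+ or S1P f/f, so some of them may have carried the Cre with 1 floxed allele. Cartilage was the chondroepiphyseal tip broken off at its border with bone, with 2 arrays per genotype. Whole long bones, which kept the epiphyseal cartilage, had 3 arrays per genotype, and in S1Pcko embryos these bones hold no endochondral bone but a cartilaginous shaft with thick cortical bone. Calvaria had 1 array per genotype. Adhering muscle and blood vessels were wiped off on filter paper, so vessels on the outer surface are only in part in the readout.

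The arrays carry the numbers 1919 and 1927 (WT cartilage), 1920 and 1928 (S1Pcko cartilage), 1921, 1923 and 1929 (WT long bone), 1922, 1924 and 1930 (S1Pcko long bone), 1925 (WT calvaria) and 1926 (S1Pcko calvaria). The titles mark 1927 to 1930 as second amplifications, and the study's text leaves 1 embryo per genotype for cartilage, so n counts arrays and the p-values leave out the spread between embryos. Between 44.1% and 47.1% of probes were detected on an array, and arrays of one group correlated at 0.977 to 0.992. Array 1930 correlated at 0.992 with 1924 and at 0.980 with 1922, and the titles do not say of which it is the second amplification. Mbtps1, which encodes S1P, had 2 tested probes with log2 changes of -0.22 and 0.06 in S1Pcko cartilage and of -0.18 and -0.18 in S1Pcko long bone (adjusted p 0.623 or higher). The position of the probes relative to the deleted part is not given in the sources used here, so these values do not check the genotype. Arrays 1922 and 1921 stood apart from the other long bone arrays of their genotype. The summed level of 9 skeletal muscle markers was 110900 on 1922 against 38970 on 1924 and 40260 on 1930, and 92670 to 101000 on the WT long bone arrays. Array 1922 also had higher sums than 1924 and 1930 of 3 epidermis markers (1689 against 271.2 and 311.7) and of 8 macrophage and granulocyte markers (3707 against 701.2 and 721.1), and a lower sum of 8 chondrocyte markers (70190 against 96790 and 96760). On 1921 the chondrocyte sum was 106800 against 60250 on 1923 and 63750 on 1929, and the macrophage and granulocyte sum 15330 against 4076 and 4134. In cartilage the epidermis sum was 1072 and 1023 on the WT and 220.1 and 179.2 on the S1Pcko arrays.

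An entry in the RefSeq promoter table for GRCm38.p6, which gives 300 bases around a transcription start, was found for 7 of the 10 genes. The promoters of Emcn, Tek and Tie1 are shown, because these genes varied together across the arrays while their promoters differ in how often they hold GGAA, the core bound by ETS factors, a family with members known from endothelial gene control. Capitals mark GGAA or its reverse complement TTCC. The Emcn promoter (chr3:137340828-137341127, plus strand), the Tek promoter (chr4:94739039-94739338, plus strand) and the Tie1 promoter (chr4:118489800-118490099, minus strand) are given 5′ to 3′.
Emcn: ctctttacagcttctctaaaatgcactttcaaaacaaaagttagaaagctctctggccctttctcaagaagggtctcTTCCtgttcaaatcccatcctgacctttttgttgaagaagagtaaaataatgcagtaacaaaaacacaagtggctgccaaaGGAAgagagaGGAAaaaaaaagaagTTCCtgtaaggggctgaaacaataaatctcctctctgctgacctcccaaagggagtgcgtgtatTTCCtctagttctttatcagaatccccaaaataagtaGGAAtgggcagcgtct
Tek: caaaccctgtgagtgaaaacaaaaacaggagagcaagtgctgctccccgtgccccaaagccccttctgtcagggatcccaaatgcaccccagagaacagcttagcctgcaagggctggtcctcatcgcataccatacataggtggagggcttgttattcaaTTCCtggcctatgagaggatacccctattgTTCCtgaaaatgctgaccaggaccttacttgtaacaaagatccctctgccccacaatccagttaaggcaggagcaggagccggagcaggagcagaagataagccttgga
Tie1: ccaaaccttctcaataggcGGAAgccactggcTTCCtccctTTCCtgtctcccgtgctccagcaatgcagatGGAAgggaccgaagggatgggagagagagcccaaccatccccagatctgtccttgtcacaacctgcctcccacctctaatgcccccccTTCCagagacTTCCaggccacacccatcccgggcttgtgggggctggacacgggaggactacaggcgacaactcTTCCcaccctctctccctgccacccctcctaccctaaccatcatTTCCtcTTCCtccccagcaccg
The core stood at 6 places in Emcn, 2 in Tek and 9 in Tie1. Among all 32851 promoters of this length 96.0% held at least 1 copy on either strand, with a median of 3, and 15.7% held 6 or more, 84.6% held 2 or more and 1.59% held 9 or more. The other 4 promoters held 5 (Kdr), 4 (Flt1), 4 (Eng) and 0 (Cldn5) copies. The longer form CAGGAAG was found once, in Emcn, and in 13.3% of all promoters. A match of letters is no evidence that a factor binds there.

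The comparison of WT long bone with WT cartilage shows where the genes lie. Levels are normalized log2 intensities, in which a difference of 1 is 2-fold. Esam, which supports junctions between endothelial cells, had levels of 10.08 and 10.08 in WT cartilage and of 10.95, 11.14 and 11.19 in WT long bone. The groups were clearly apart. The difference was 1.01 (standard error 0.16), or 2.02-fold with a 95% interval of 1.57 to 2.59, and adjusted p = 0.0037 from limma, and Esam was the only one of the 9 genes that passed both thresholds, adjusted p and 2-fold. For comparison, 2.37% of all probes were higher and 1.63% lower past both thresholds.

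Pecam1, the platelet endothelial adhesion molecule, had levels of 10.14 and 9.77 in WT cartilage and of 10.91, 11.04 and 10.64 in WT long bone. The difference was 0.91 (standard error 0.21, adjusted p = 0.0216), and its second probe for the same transcript differed by 0.58 (adjusted p = 0.0576). Another Pecam1 probe, designed on another cDNA, differed by 0.12 (adjusted p = 0.72). Cdh5, the cadherin of endothelial junctions, had 8.83 and 9.33 in WT cartilage and 9.42, 9.94 and 10.26 in WT long bone. Its groups did not overlap but lay close, and its difference of 0.79 (standard error 0.29) did not pass the test (adjusted p = 0.111).

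Emcn encodes endomucin, a sialomucin of capillary and venous endothelium that is high in the vessels of bone. It had levels of 10.45 and 10.37 in WT cartilage and of 11.04, 11.06 and 11.24 in WT long bone, a difference of 0.70 (standard error 0.17, adjusted p = 0.0273). The spread within each group was far smaller than the gap between them. A second, dim Emcn probe differed by 0.13 (adjusted p = 0.68).

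Flt1, a receptor of vascular endothelial growth factor that is also known as a decoy, had 9.40 and 9.26 in WT cartilage and 10.09, 9.98 and 10.05 in WT long bone. The difference was 0.71 (standard error 0.20, adjusted p = 0.0469), and its second probe, detected on 4 of 12 arrays, differed by 0.29 (adjusted p = 0.363). The main signalling receptor, Kdr, could not be followed well. Its probe for the reference transcript was detected on 0 of 12 arrays, and the probe that was tested was designed on another cDNA and lay between 6.84 and 7.49 on all arrays. Its difference of 0.02 (standard error 0.17, adjusted p = 0.959) therefore rests on that probe alone.

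Tek, the angiopoietin receptor, had 7.43 and 7.63 in WT cartilage and 8.11, 8.23 and 8.66 in WT long bone, a difference of 0.80 (standard error 0.20, adjusted p = 0.0275). Tie1, its relative without a high-affinity angiopoietin ligand, had 6.17 and 6.29 in WT cartilage and 6.40, 7.05 and 7.42 in WT long bone. The lowest long bone array, 1921, came close to the cartilage arrays, and the difference of 0.72 (standard error 0.25) did not pass the test (adjusted p = 0.0957). Eng, which encodes endoglin, a co-receptor for transforming growth factor beta and bone morphogenetic proteins, had 8.14 and 8.26 in WT cartilage and 8.22, 8.65 and 8.91 in WT long bone. These groups overlapped, and the difference of 0.40 was not past the threshold (adjusted p = 0.248). The second Eng probe was detected on 1 array and was not tested.

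**Figure D1:**
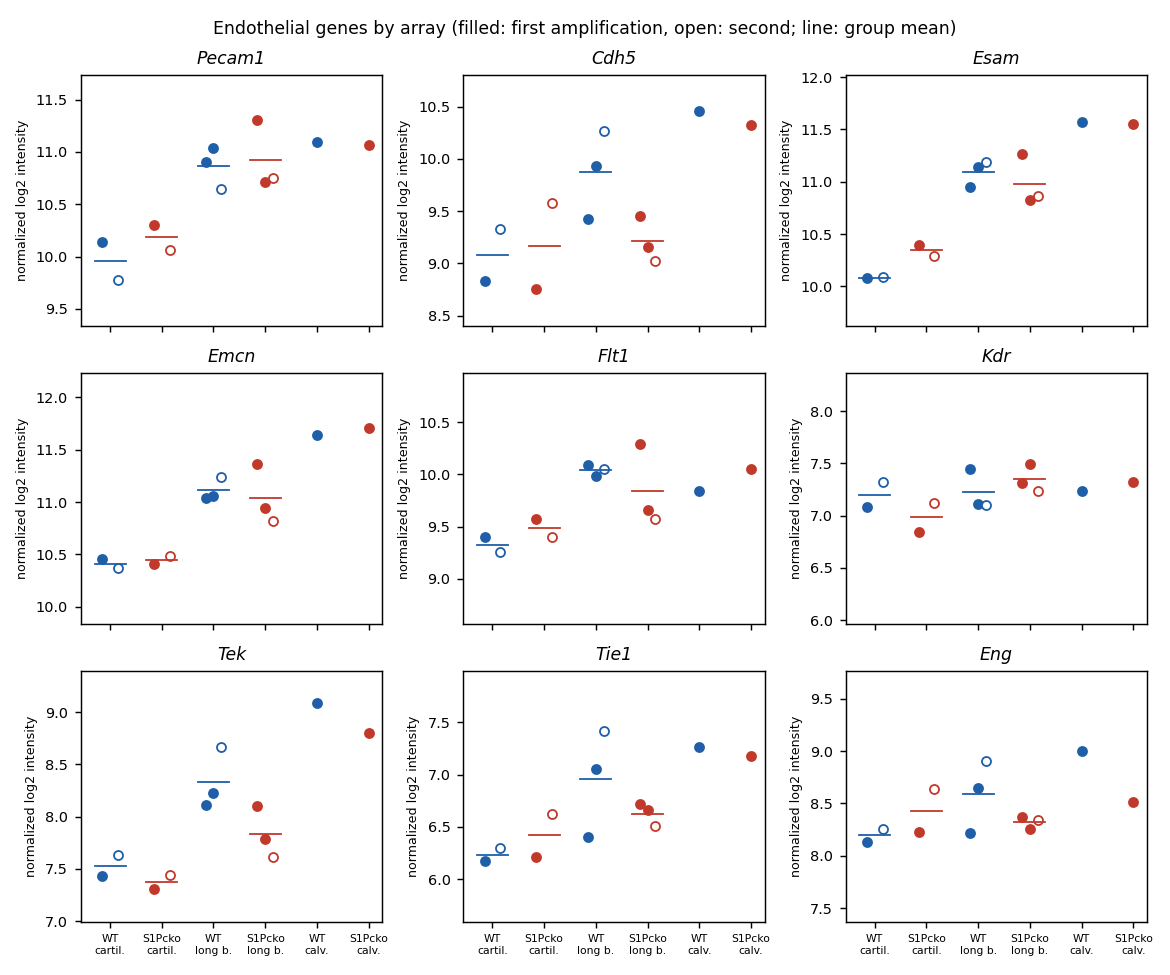
Normalized log2 intensity of the brightest probe of the 9 endothelial genes (vertical axis, the same span in every panel) in the 6 groups (horizontal axis), with WT in blue and S1Pcko in red, 1 point per array and lines at the means of groups with more than 1 array. Esam lay between 10.08 and 10.40 on the 4 cartilage arrays and between 10.82 and 11.57 on the other 8, whereas Kdr stayed between 6.84 and 7.49 throughout.

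In all, 5 of the 9 genes had an adjusted p under 0.05 in this comparison, against 5.47% of all probes, the arrays of 7 of 9 did not overlap, against 19.6%, and 9 of 9 differences were positive, against 48%. The median of the 9 log2 differences was 0.72 and that of all probes was -0.016. The number of genes with an adjusted p under 0.05 was 1 without 1919, 1927 or 1923, 2 without 1929, and 6 without 1921, when Cdh5 and Tie1 were among them. Esam kept an adjusted p of 0.0443 or less whichever array was left out, but dropped below 2-fold without 1923 or 1929. With the amplifications of an extract averaged, which leaves 1 cartilage sample per genotype, 0 of the 9 had an adjusted p under 0.05 in limma. The Esam difference was then 0.98, with an adjusted p of 0.239 or 0.0978 depending on the array paired with 1930.

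In S1Pcko embryos the same comparison gave smaller values. The median over the 9 genes was 0.36, or 1.29-fold, and 8 of 9 were positive, against 47% of all probes. In limma 0 passed the test, while 4 had an unadjusted p under 0.05 (Pecam1, Esam, Emcn and Tek). The share of all probes at an unadjusted p under 0.05 was not computed, so such counts, here and below, only describe the lists. Among all probes 1.25% were higher at an adjusted p under 0.05, and 0.8% were higher and 0.181% lower past both thresholds. Pecam1 had levels of 10.31 and 10.06 in S1Pcko cartilage and of 11.31, 10.72 and 10.76 in S1Pcko long bone, a difference of 0.74 (standard error 0.21, adjusted p = 0.125). Esam had 10.40 and 10.29 against 11.26, 10.82 and 10.86, a difference of 0.64 (standard error 0.16, adjusted p = 0.0888). Emcn had 10.40 and 10.48 against 11.36, 10.95 and 10.82, a difference of 0.60 (standard error 0.17, adjusted p = 0.126). In these 3 genes and in Flt1, Kdr and Tek the S1Pcko long bone arrays all lay above the cartilage arrays, 6 of 9 against 16.8% of all probes.

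Cdh5 behaved otherwise. Its levels were 8.76 and 9.58 in S1Pcko cartilage and 9.46, 9.16 and 9.02 in S1Pcko long bone, so the groups overlapped and the means differed by 0.04 (95% interval -0.59 to 0.68). The differences of Tie1 (0.21) and Eng (-0.11) were also within the spread of the arrays. Whether the tissue difference itself was smaller in S1Pcko than in WT is answered by the test of the difference between the genotype effects.

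**Figure D2:**
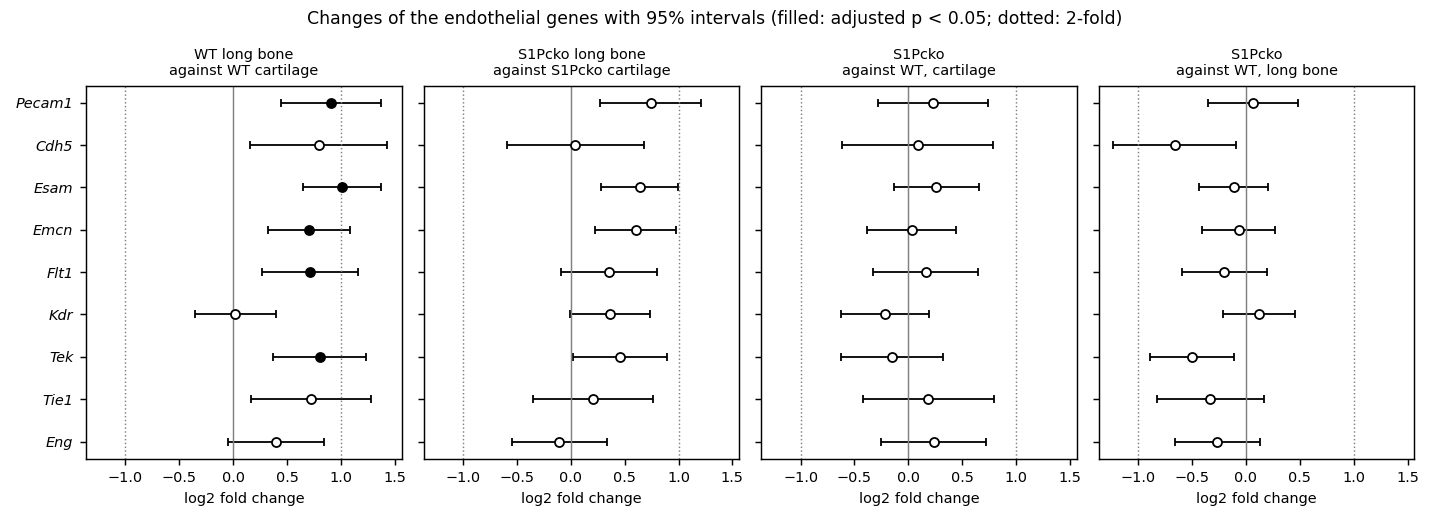
Log2 fold change (horizontal axis) of the 9 endothelial genes (vertical axis) in the tissue and the genotype comparisons, with 95% intervals from limma, filled points for an adjusted p under 0.05 and dotted lines at 2-fold. Filled points are found in the comparison of WT long bone with WT cartilage (Pecam1, Esam, Emcn, Flt1 and Tek), and in long bone the intervals of Cdh5 and Tek lay below 0 without passing the adjusted test.

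In cartilage 0 of the 9 genes differed between the genotypes past the test. S1Pcko against WT gave a median log2 difference of 0.16 over the 9 genes, with values from -0.22 (Kdr) to 0.26 (Esam), of which 7 of 9 were positive, against 51.9% of all probes. By limma 0 of the 9 also had an unadjusted p under 0.05. Among all probes 2.36% were higher and 2.5% lower at an adjusted p under 0.05, and 1.07% and 1.34% passed both thresholds. The Esam arrays lay apart, with 10.40 and 10.29 in S1Pcko against 10.08 and 10.08 in WT, and the difference of 0.26 had a 95% interval of -0.13 to 0.66 (adjusted p = 0.469). Flt1 was also apart, by 0.16 with an interval of -0.32 to 0.64, which with Esam makes 2 of 9 genes, against 27.6% of all probes. Without 1928 the median was -0.0064. The widest interval was that of Cdh5, from -0.61 to 0.79, whose upper end is 1.73-fold.

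In long bone, where S1Pcko embryos lack endochondral bone, the median was -0.20, or 0.87-fold, with 7 of 9 genes negative, against 49.5% of all probes. Of the 9 genes 0 passed the test in limma and 2 had an unadjusted p under 0.05 (Cdh5 and Tek). Among all probes 0.813% were lower and 1.2% higher at an adjusted p under 0.05, and 0.413% and 0.615% passed both thresholds. In a bulk sample fewer endothelial cells and less RNA per cell cannot be told apart. Cdh5 had levels of 9.42, 9.94 and 10.26 in WT and of 9.46, 9.16 and 9.02 in S1Pcko long bone. Only the lowest WT array overlapped the S1Pcko arrays, and the difference was -0.66 (standard error 0.26, unadjusted p = 0.027, adjusted p = 0.264). Tek, with 8.11, 8.23 and 8.66 in WT and 8.10, 7.79 and 7.62 in S1Pcko, did not overlap, although 1921 and 1922 were almost level. Its difference was -0.50 (standard error 0.18, unadjusted p = 0.0164, adjusted p = 0.209). It was the only one of the 9 genes whose S1Pcko arrays all lay lower, against 8.55% of all probes.

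Tie1 differed by -0.33 (adjusted p = 0.552), Eng by -0.27 (0.549) and Flt1 by -0.20 (0.676). Emcn had 11.04, 11.06 and 11.24 in WT and 11.36, 10.95 and 10.82 in S1Pcko long bone, and its arrays overlapped with a difference of -0.07 (95% interval -0.41 to 0.27). Its second, dimmer probe did not overlap and differed by -0.37 (unadjusted p = 0.0309, adjusted p = 0.28). The second Flt1 probe differed by 0.20 (adjusted p = 0.643), opposite in sign to the bright one. The junction and adhesion genes other than Cdh5 were likewise close, with -0.11 for Esam (interval -0.44 to 0.21) and 0.06 for Pecam1 (interval -0.35 to 0.48). Array 1922 gave the highest S1Pcko long bone level of every one of these genes except Kdr. Its summed muscle level, 110900, lay above the 92670 to 101000 of WT long bone, whereas 1924 and 1930 had 38970 and 40260. The part of muscle in these levels was not tested. Without 1922 the S1Pcko group is 1924 and 1930, which correlated at 0.992 and may come from the same extract. The median was then -0.29, where it was -0.07 without 1930, -0.10 without 1929 and -0.11 without 1924. Also without 1922, the Cdh5 difference was -0.78 (adjusted p = 0.168) and the Tek difference -0.63 (adjusted p = 0.0829).

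The long bone differences were not the same in the 2 amplifications, which also differ in the extracts they hold. By its title 1929 is the second amplification of the extract on 1923, and 1930 is that of 1922 or 1924. Amplification and extract therefore cannot be told apart here. Within the first amplification Cdh5 had 9.94 on 1923 and 9.16 on 1924, against 9.42 on 1921 and 9.46 on 1922. Between the arrays of the first amplification S1Pcko minus WT was -0.37 for Cdh5, -0.23 for Tek and -0.04 for Tie1. Between the second amplifications, 1930 and 1929, it was -1.24, -1.05 and -0.91. The median over the 9 genes was -0.04 in the first and -0.47 in the second, and the latter rests on 1 array per genotype and has no test. Array 1929 gave the highest long bone level of Cdh5, Tek, Tie1 and Eng. Cdh5 was also higher in the second than in the first amplification of cartilage, by 0.50 in WT and 0.82 in S1Pcko.

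**Figure D3:**
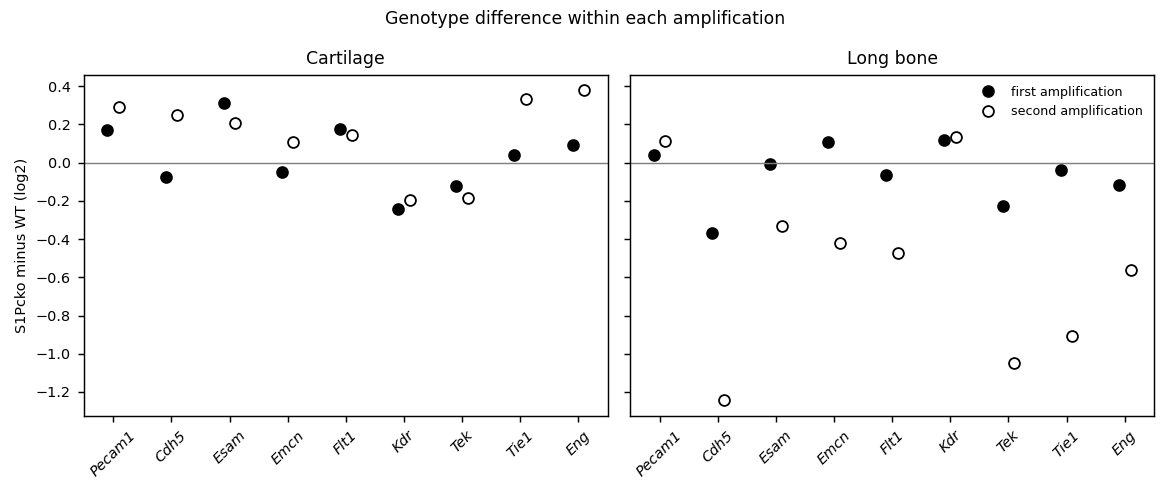
S1Pcko minus WT difference in log2 intensity (vertical axis) of the 9 endothelial genes (horizontal axis) in cartilage and long bone, between first amplifications (filled) and between second amplifications (open). In long bone the first amplification sets the mean of 1922 and 1924 against that of 1921 and 1923, and the second sets 1930 against 1929. Cdh5, Tek and Tie1 in long bone lay at -0.37, -0.23 and -0.04 in the first and at -1.24, -1.05 and -0.91 in the second amplification.

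The genotype effect in cartilage minus that in long bone, which is also the tissue difference in WT minus that in S1Pcko, had a median of 0.36 over the 9 genes, with 8 of 9 positive, against 51.5% of all probes, whose median was 0.015. Of the 9 genes 0 passed the test in limma and 0 had an unadjusted p under 0.05, where 0.143% of all probes were higher and 0.198% lower past both thresholds. The largest was Cdh5 at 0.75 (95% interval -0.15 to 1.65, adjusted p = 0.427), followed by Tie1 at 0.51 and Eng at 0.50. The smaller tissue values in S1Pcko than in WT were therefore within the error of these arrays. Without 1930 the median was 0.24 and without 1922 it was 0.51.

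Calvaria, with 1 array per genotype and no test, gave the highest levels of some of the genes. For Pecam1, Flt1, Tie1 and Kdr the highest array was a long bone array (11.31, 10.29, 7.42 and 7.49). Both calvaria arrays lay above all 10 cartilage and long bone arrays for 4 of 9 genes (Cdh5, Tek, Emcn and Esam), against 7.22% of all probes. Cdh5 had a level of 10.46 in WT and 10.32 in S1Pcko calvaria, where the highest of the other arrays had 10.26. Tek had 9.08 and 8.80 against a highest other array of 8.66, Emcn 11.64 and 11.71 against 11.36, and Esam 11.57 and 11.55 against 11.26. The difference between the calvaria arrays, S1Pcko minus WT, ran from -0.50 (Eng) to 0.20 (Flt1) with a median of -0.03, 0 of 9 reached 2-fold, and 0.88% of all probes were 2-fold higher and 0.295% 2-fold lower. The summed level of 9 muscle markers in calvaria was 10060 and 10010, below that of every other array.

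Ordered by group mean, WT cartilage was the lowest group for 7 of the 9 genes and S1Pcko cartilage for Kdr and Tek. A calvaria group, which is 1 array, was the highest for 8 of 9, and S1Pcko long bone was highest for Kdr. For Flt1 the highest was S1Pcko calvaria at 10.048, against 10.043 in WT long bone and 9.84 in WT calvaria. Neighbours in this order often overlapped: WT and S1Pcko long bone overlapped for all genes but Tek, and WT and S1Pcko cartilage for all but Flt1 and Esam. Averaged over the 9 genes after centring each on its mean, the log2 levels were -0.49 and -0.43 in WT cartilage, -0.46 and -0.28 in S1Pcko cartilage, 0.05, 0.23 and 0.37 in WT long bone, 0.22, -0.08 and -0.16 in S1Pcko long bone, 0.56 in WT calvaria and 0.48 in S1Pcko calvaria. The long bone arrays of both genotypes lay between cartilage and calvaria. The genes were also detected in cartilage, where the summed level of the 9 genes was 5280 to 6003 against 7445 to 10450 in long bone.

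Across the 12 arrays most of the genes varied together, as a description over points that share tissues and amplifications. The 36 pairs had Pearson correlations of -0.16 to 0.97 with a median of 0.71. The 28 pairs without Kdr had 0.34 to 0.97 with a median of 0.81. Emcn and Esam were the closest pair at 0.97, Cdh5 and Tie1 followed at 0.93 and Tek and Emcn at 0.93. Pecam1 and Flt1 went together (0.89) and were less close to Eng (0.34 in both pairs). The genes nearest to the mean profile of the 9 over 12 arrays were Cmtm6 (0.98), Grm4 (0.98), Bok (0.98), Tal1 (0.97), Gpx1 (0.97), Dlx3 (0.97), Itm2b (0.97), Slit2 (0.97), Gm266 (0.96) and Mmp23 (0.96). Among them Tal1, a transcription factor of blood and endothelial progenitors, is one of the further endothelial genes described next, and Dlx3 is a homeobox gene known from osteoblasts. Of the 9 endothelial genes, which make up this mean, 3 were among the 50 genes most like it. The highest of the 9 was Emcn at 0.970, below Cmtm6 at 0.977. The shared profile was therefore not particular to endothelial genes.

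Of 36 further endothelial genes 35 had a probe and 30 were tested. In WT long bone against WT cartilage 14 of the 30 had an adjusted p under 0.05, all higher, against 5.47% of all probes, 4 of these past 2-fold, against 2.37%, and the median was 0.56. Adgrl4, an adhesion receptor of angiogenic endothelium, differed by 1.18 (adjusted p = 0.0176), Icam2, an adhesion molecule, by 1.18 (0.00441), Tal1 by 1.07 (0.01) and Mmrn2, a matrix protein of vessels, by 1.00 (0.00779). Without 1919 these genes except Mmrn2 lost their call, without 1927 they did except Icam2, and Mmrn2 also lost it without 1921 or 1923 and with the amplification as a block. With averaged amplifications 0 of the 4 kept it. In S1Pcko embryos 2 of 30 had an adjusted p under 0.05, against 1.25% of all probes, Mmrn2 at 0.91 and the transcription factor Sox18 at 0.86, neither 2-fold, and the median was 0.32. By genotype 0 of 30 passed in limma in cartilage (median 0.11, with 3 at an unadjusted p under 0.05) or in long bone (median -0.08, with 4 at an unadjusted p under 0.05).

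Of 14 arterial, Notch and ephrin genes 13 were tested, and 4 were higher in WT long bone than in WT cartilage past both thresholds, against 2.37% of all probes. Nrp2, a co-receptor for growth factors and semaphorins, had 7.43 and 7.09 in WT cartilage and 9.26, 9.96 and 9.52 in WT long bone, a difference of 2.32 (adjusted p = 7.85e-05). The other 2 Nrp2 probes differed by -0.22 and 0.52 without passing, so the gene is uncertain. Unc5b, a netrin receptor of arterial endothelium, had 9.88 and 9.60 against 11.90, 12.19 and 11.55, and both of its probes were higher (2.14 and 2.06). Hey1, a Notch target, had 7.45 and 7.43 against 9.32, 9.41 and 9.81 (2.07, adjusted p = 0.000269), and Notch4, an endothelial Notch receptor, was higher by 1.40 with 1 of 2 probes (adjusted p = 0.00276). These 4 calls held whichever array was left out. With averaged amplifications they held when 1930 was paired with 1922. They ended when it was paired with 1924, the array with which it correlated more closely (0.992 against 0.980). The averaged differences were 2.235 (Nrp2), 2.145 (Unc5b), 2.022 (Hey1) and 1.409 (Notch4) in either pairing. The calls also ended in the first amplification alone. These genes are also expressed outside vessels, Hey1 and Unc5b among them. In S1Pcko embryos Unc5b (1.33), Nrp2 (1.32) and Hey1 (1.05) were higher in long bone than in cartilage past both thresholds. That makes 3 of 13, against 0.8% of all probes. The other 2 Nrp2 probes differed by 0.03 and 0.73 and the second Unc5b probe by 0.99, without passing. Unc5b and Nrp2 lost the call without 1920 or 1928, and Hey1 lost it without any 1 of 7 arrays. All of these calls ended with averaged amplifications in either pairing, which leave 1 cartilage sample per genotype. The differences were then 1.39 or 1.31 (Unc5b), 1.32 or 1.29 (Nrp2) and 1.16 or 1.02 (Hey1). By genotype 0 of 13 passed both thresholds in limma in either tissue, and the arterial connexin Gja5 was lower in S1Pcko long bone at an adjusted p of 0.0363 (-0.85). At an unadjusted p under 0.05, 5 were higher and 1 lower in cartilage, and 2 were lower in long bone.

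Of the ligands of the receptors 15 genes had a probe and 13 were tested. Cxcl12, a chemokine of perivascular and marrow stromal cells, had 12.66, 12.15 and 12.02 in WT long bone and 11.66, 10.67 and 10.68 in S1Pcko long bone. It was lower in S1Pcko, with a log2 difference of -1.28 (adjusted p = 0.031) and no overlap. Its second probe differed by -0.29 (adjusted p = 0.712), and the call was lost without any 1 of 7 arrays. The call also ended with the authors' processed values and with averaged amplifications, where the difference was -1.21 or -1.45. In WT embryos Cxcl12 (2.14), Tgfb1, a growth factor of bone matrix (1.15), and Pdgfb, which recruits pericytes (1.02), were higher in long bone than in cartilage, of which Tgfb1 and Pdgfb lost the call without 1919 or 1929, and Tgfb1 also without 1923 or 1927. In S1Pcko embryos Angpt1, the activating ligand of Tek, was higher in long bone by 1.07 (adjusted p = 0.037), a call that was lost without any 1 of 8 arrays. Vegfa and the other tested ligands did not pass both thresholds. Of the 13, 1 was lower in S1Pcko than in WT long bone, against 0.413% of all probes. In the tissue comparisons 3 were higher in WT, against 2.37%, and 1 in S1Pcko, against 0.8%.

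Of 10 inhibitors of vessel growth 9 were tested. Serpinf1, which encodes the secreted inhibitor pigment epithelium-derived factor and is also an osteoblast product, had levels of 11.99 and 11.93 in WT cartilage and of 13.46 and 13.27 in S1Pcko cartilage. It was higher by 1.41 (standard error 0.16, adjusted p = 0.000811), with the genotypes far apart. In long bone its levels were 13.75, 13.74 and 13.58 in WT and 13.98, 13.66 and 13.76 in S1Pcko, a difference of 0.11 (adjusted p = 0.777). The second, dimmer Serpinf1 probe differed by -0.02 in cartilage (adjusted p = 0.972), and the mean of both probes by 0.70 (adjusted p = 0.0164). With averaged amplifications, which leave 1 cartilage sample per genotype, the difference was 1.41 with an adjusted p of 0.248 or 0.118. Tnmd, an inhibitor made by tendon, was lower in S1Pcko long bone by less than 2-fold (-0.85, adjusted p = 0.0496). Like Serpinf1, the osteoblast marker Ibsp was higher in S1Pcko cartilage, by 2.08 (adjusted p = 0.000515). It was the only one of 7 tested osteoblast markers past both thresholds there, against 1.07% of all probes. Bglap (2.19, adjusted p = 0.0688), Phex (0.94, 0.0557) and Alpl (0.87, 0.129) also lay higher without overlap. That makes 4 of 7, against 27.6% of all probes, while 1 of 7 lay lower without overlap. The median of the 7 osteoblast markers was 0.87, and their mean log2 level was 8.60 and 8.76 in WT against 9.52 and 9.57 in S1Pcko cartilage. Their summed level was 14550 to 24200 in WT and 22600 to 26410 in S1Pcko cartilage, and their part in the Serpinf1 result was not tested.

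Of 12 mural cell genes, which mark pericytes and smooth muscle, 11 were tested. Rgs5, a pericyte gene, was lower in WT long bone than in WT cartilage (-1.43, adjusted p = 0.0201), whereas its second probe was higher by 0.94 (adjusted p = 0.047) and in S1Pcko embryos by 1.59 (adjusted p = 0.015), so its direction is not settled. The call was lost without 1919, 1927 or 1929. Of 5 lymphatic genes Lyve1, which is also carried by macrophages, was lower in S1Pcko cartilage (-1.51, adjusted p = 0.0303), with 7.76 and 6.91 in WT and 6.13 and 5.51 in S1Pcko, and the call was lost without 1919, 1920 or 1928. Macrophage and granulocyte markers had lower values there too, 8 of 8 negative, where 51.9% of all probes were positive. In limma 0 of the 8 passed both thresholds and 1 had an unadjusted p under 0.05. Their summed level was 651.6 to 744.1 against 1210 to 1391 in WT. Of 3 epidermis markers Lor was lower there past both thresholds (-3.42, adjusted p = 1.36e-05), with the sums given above. The part of either group of markers in the Lyve1 value was not tested. With averaged amplifications the adjusted p of Lyve1 was 0.412 or 0.144.

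Markers of some other cells of the marrow and the bone surface differed between the long bones of the genotypes, and others did not pass. Of 7 osteoblast markers 0 passed both thresholds, with a median of -0.05. Of 3 megakaryocyte and platelet markers 0 passed, with a median of -0.22. In S1Pcko against WT long bone 4 of 7 osteoclast markers were lower past both thresholds (Ctsk, Mmp9, Ocstamp and Dcstamp), against 0.413% of all probes, here and for the next counts, with a median of -1.18, and their summed level was 8225 to 15550 against 22830 to 26350. Of 6 erythroid markers 3 were lower (the globin Hba-a1, which has a near-identical copy, the haem synthesis enzyme Alas2 and the anion exchanger Slc4a1), with a median of -0.78 and a summed level of 11030 to 16720 against 28150 to 29440. Of 8 macrophage and granulocyte markers 1 was lower, the neutrophil gene Ltf, with a median of -2.08. Of 9 muscle markers 0 passed in limma, 5 had an unadjusted p under 0.05, and the median was -0.86. Chondrocyte markers had positive values in 8 of 8, against 50.5% of all probes. In limma 0 passed the test and 0 had an unadjusted p under 0.05, and the median was 0.29. Epidermis markers were positive in 3 of 3, against the same 50.5%, with 0 past the test, 1 at an unadjusted p under 0.05 and a median of 0.76. The chondrocyte sum was 60250 to 106800 in WT and 70190 to 96790 in S1Pcko long bone. The median over the 9 endothelial genes was -0.20, and the part of these other tissues in it was not tested. The summed level of the 9 was 7445 to 10450 in S1Pcko and 8610 to 9840 in WT long bone, ranges that overlap. The osteoclast and erythroid ranges did not overlap.

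In WT long bone against WT cartilage the medians were 2.13 for osteoclast, 2.12 for osteoblast and 2.18 for macrophage and granulocyte markers and 0.44 for erythroid markers, beside 0.72 for the 9 endothelial genes. Muscle markers had positive values as well, with 0 of 9 past the test in limma, 1 at an unadjusted p under 0.05, a median of 0.39 and a summed level of 61890 to 67000 in WT cartilage and 92670 to 101000 in WT long bone, and chondrocyte markers had a median of -0.999. Muscle carries vessels of its own, and the part of muscle in the endothelial differences was not tested. Calvaria, a different tissue with 1 array per genotype, had high endothelial levels and the lowest muscle sums. Those arrays do not measure the part of muscle in the cartilage and long bone samples.

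**Figure D4:**
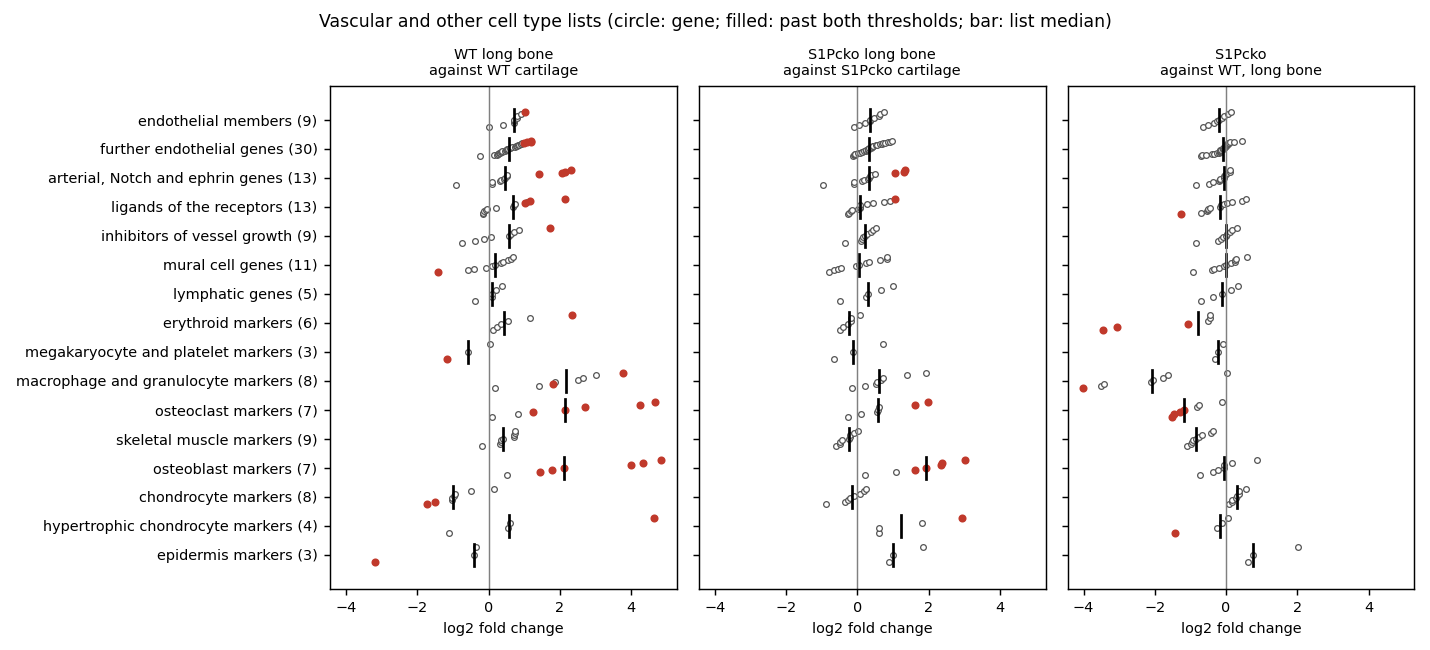
Log2 fold change (horizontal axis) of each tested gene of the lists (vertical axis, number of tested genes in parentheses) in 3 comparisons, with filled circles past both thresholds and a bar at the list median. In S1Pcko against WT long bone the medians of the 9 endothelial genes and of osteoclast markers were -0.20 and -1.18.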

How the data were processed

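RNA of 12 samples was hybridised to Illumina MouseWG-6 v1.1 arrays. The deposited table holds, per probe, a signal intensity without background subtraction and a detection p-value from the authors' scanner software, and the authors' processed intensity was deposited beside it and used as an alternative only. Signals were background-corrected, quantile normalized over 12 arrays and put on a log2 scale with neqc (limma 3.58.1, R 4.3.3, offset 16), since no deposited values were on a log2 scale. The 23744 probes with a detection p-value under 0.05 on at least 2 of 10 cartilage and long bone arrays were fitted with limma as 4 groups (6 residual and 5.13 prior degrees of freedom), with Benjamini-Hochberg adjustment over all of them and thresholds of adjusted p under 0.05 and 2-fold. Each gene is represented by the tested probe with the highest mean level. Probe names came from the platform annotation (32794 probes with 1 symbol, 55 with several, 13794 with none). A list gene is named if it is among the up to 4 largest changes past both thresholds per list and comparison, and osteoblast, blood and osteoclast genes and genes with an adjusted p under 0.05 alone were named after their values were seen. Gene members and lists were chosen with earlier results of these data known. The fit was tested on simulated data with independent noise on each array. Repeated amplifications of an extract were not simulated, so that test does not check the p-values given here. The replicate numbers of the labels follow the amplification marked in the titles, which do not name a batch. The deviations of same-numbered WT and S1Pcko cartilage arrays from their group means correlated at 0.47. With 2 arrays per group these deviations mirror each other, so this is 1 value. In long bone same-numbered pairs correlated at -0.10 to 0.13 and differently numbered pairs at -0.10 to 0.12. The number of arrays limits the precision. The alternatives were other scalings, filters, probe summaries and blocks, averaged amplifications and leaving out each array.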

Additional observations from a re-analysis of the deposited data

Results flagged for a closer look

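The genotype effect on Serpinf1, the gene of pigment epithelium-derived factor, differed between cartilage and long bone in limma's test of the difference. The log2 difference was 1.30, with a standard error of 0.21 and an adjusted p of 0.0304. S1Pcko minus WT was 1.41 in cartilage, higher on both arrays, and 0.11 in long bone. The second, dimmer Serpinf1 probe gave -0.0072 (adjusted p = 0.992), and the mean of both probes 0.65 (adjusted p = 0.139). With averaged amplifications, which leave 1 cartilage sample per genotype, the difference was 1.27 or 1.35, with an adjusted p of 0.947 or 0.599 depending on the array paired with 1930. The adjusted p was 0.0661 with median scaling and 0.0654 with the replicate number as a block, and leaving out any 1 of 8 of the 10 arrays took it past 0.05, up to 0.158. The call therefore rests on 1 probe and on counting amplifications as separate samples.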

How the results depend on the processing

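The counts of 0 endothelial genes in both genotype comparisons, in their difference and in the S1Pcko tissue comparison were 0 under every alternative with a test. In WT long bone against cartilage the count past both thresholds, 1, was 0 without background correction, with median scaling, in the first amplification alone and with averaged amplifications, and 0 to 3 with an array left out. The count at an adjusted p under 0.05, 5, was 3 with median scaling, 2 with the mean over probes, 0 in the first amplification alone and with averaged amplifications, and 1 to 6 with an array left out. The median of this comparison was 0.54 with the mean over probes, 0.87 in the second amplification alone and 0.64 to 0.89 with an array left out. In the first amplification alone the medians were 0.039 for cartilage genotype, -0.041 for long bone genotype, 0.13 for their difference and 0.56 for the S1Pcko tissue comparison. In the second alone they were -0.47 for long bone genotype, 0.62 for the difference and 0.17 for the S1Pcko tissue comparison. With an array left out they ran from -0.0064 to 0.16 for cartilage genotype, -0.29 to -0.069 for long bone genotype, 0.24 to 0.51 for the difference and 0.32 to 0.50 for the S1Pcko tissue comparison. With the replicate block the medians were 0.16, -0.20 and 0.36 for the 2 genotype comparisons and their difference, and this block cannot be fitted across tissues because the numbers are nested in them. The replicate block ended the call of the Serpinf1 difference and no other call of a named gene. The amplification as a block ended that of Mmrn2 in the WT tissue comparison, whose value was then 0.97 and under 2-fold (adjusted p = 0.00681). The array headers name no chip, so a chip block was not run, and the second amplification alone has no test.

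Signs turned for some differences that did not pass the test. In cartilage genotype Emcn was -0.045 with median scaling, -0.086 with the mean over probes and -0.048 in the first amplification, and Cdh5 was -0.077 there. In long bone genotype Emcn was 0.11 in the first amplification and 0.031 with 1930 averaged with 1924, and Pecam1 was -0.000372 with 1930 averaged with 1922. In the difference Emcn was -0.16 in the first amplification and -0.000123 with 1930 averaged with 1924, and Pecam1 was -0.016 with the mean over probes. In the S1Pcko tissue comparison Cdh5 was -0.00900 with median scaling and Eng 0.087 in the first amplification. With an array left out cartilage genotype ran from -0.32 to 0.50 for Cdh5, -0.010 to 0.072 for Emcn and -0.022 to 0.39 for Tie1, long bone genotype from -0.23 to 0.044 for Emcn and -0.13 to 0.17 for Pecam1, the difference from -0.013 to 0.26 for Emcn and -0.016 to 0.36 for Pecam1, the S1Pcko tissue comparison from -0.37 to 0.46 for Cdh5 and -0.31 to 0.10 for Eng, and the WT tissue comparison from -0.10 to 0.14 for Kdr. The causes were not tested. The 2 or 3 arrays per group limit what could be detected, and the Kdr probes, 1 of them not detected on any array, limit what that gene can show.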
